A study of Mus musculus with 12 samples.

Results

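Genes of haem breakdown and iron handling were described in mouse kidney tubuloids, which are cultures of tubule cells grown in a gel. The 10 genes were chosen by their function, with no threshold on a measured value but with earlier results of these data known. The genes were looked up by symbol in the deposited expression table of 20819 genes. They are Hmox1, Hmox2, Blvra and Blvrb of haem breakdown, Fth1 and Ftl1 of iron storage, Tfrc, Slc11a2 and Slc40a1 of iron transport, and Fech of haem synthesis. Each of the 10 was found 1 time, and all 10 passed the filter on low values.

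The tubuloids were treated for 12 h with myoglobin and 100 nM dexamethasone, with myoglobin alone, or with vehicle, and messenger RNA of 4 libraries per treatment was sequenced. Myoglobin, the oxygen-binding haem protein of muscle, served in the study as the agent of tubular injury, and dexamethasone is a synthetic glucocorticoid. All groups share the wildtype genotype, the origin from the renal cortex of 4 mice and the culture in Matrigel. The age of the mice and the dose of myoglobin are not given in the sources used here, and there was no group with dexamethasone alone. Values are normalised read counts per gene, that is, reads divided by a scaling factor of the library.

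Haem that enters or is made in a cell is opened by haem oxygenases into biliverdin, carbon monoxide and ferrous iron, and biliverdin reductases turn biliverdin into bilirubin. The freed iron is stored in ferritin, a shell of heavy and light chains, or leaves the cell through ferroportin. Iron regulatory proteins bind a hairpin in several of these messenger RNAs, the iron-responsive element, when free iron is scarce: in the leader of a messenger RNA they block its translation, and in the tail of the transferrin receptor messenger RNA they protect it from decay. Proximal tubule cells take up filtered myoglobin and haemoglobin by endocytosis, and Hmox1 is a well-known inducible gene of the injured kidney.

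The iron-responsive elements are shown because they differ between the members. Several of these messenger RNAs are known to carry the element, so matches in them were foreseeable. The share over all genes below is a description and not a test. A search of the untranslated regions (UTRs) for the loop CAGTGN, closed by a stem of 5 pairs below which C stands unpaired, found such hairpins in 4 members, Fth1, Ftl1, Tfrc and Slc40a1. Pairs of G with T were allowed, and only the strand of the transcript was searched. Of 15429 genes with a protein-coding transcript, with or without an annotated UTR, 146 held the same pattern in a UTR, or 0.946%. In Slc11a2 the hairpin was found only when a bulged base was allowed in the stem, a form that 396 genes (2.57%) held when both forms were counted. Both searches were chosen with the values of the genes known. Each site below is 30 bases long, 5′ to 3′ on the transcript strand in mm10, with the loop in capitals.
Fth1, 5′ UTR, chr19:9982732-9982761, plus strand: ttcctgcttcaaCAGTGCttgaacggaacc
Ftl1, 5′ UTR, chr7:45459778-45459807, minus strand: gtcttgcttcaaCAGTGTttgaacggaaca
Slc40a1, 5′ UTR, chr1:45925464-45925493, minus strand: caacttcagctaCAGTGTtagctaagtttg
Tfrc, 3′ UTR, chr16:32631219-32631248, plus strand: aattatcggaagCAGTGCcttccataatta
Tfrc, 3′ UTR, chr16:32631598-32631627, plus strand: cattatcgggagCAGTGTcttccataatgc
Tfrc, 3′ UTR, chr16:32631663-32631692, plus strand: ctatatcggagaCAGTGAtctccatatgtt
Tfrc, 3′ UTR, chr16:32631710-32631739, plus strand: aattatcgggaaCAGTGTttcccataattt
Slc11a2, 3′ UTR, chr15:100395152-100395181, minus strand, bulged: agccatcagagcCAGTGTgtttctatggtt
The ferritin hairpins share the stem ttcaa and ttgaa on either side of the loop, with the unpaired c before it. Tfrc carries 4 hairpins in its 3′ UTR. Of the annotated transcripts searched, the hairpin lies in 4 of 5 for Fth1, 1 of 2 for Ftl1 and 1 of 4 for Slc40a1. Each Tfrc hairpin lies in 1 of 3, and that of Slc11a2 in 1 of 6. The gene-level values do not separate transcripts. No match was found in Hmox1, Hmox2, Blvra, Blvrb or Fech.

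By the estimate from the scaling, libraries with both agents hold 3.26 to 5.53 M reads assigned to genes, against 5.28 to 5.92 M in myoglobin libraries and 5.51 to 5.87 M in vehicle libraries. Replicate 4 of myoglobin with dexamethasone stands apart. It has 3.26 M estimated reads and a scaling factor of 0.569, against 0.904 to 1.11 in the other 11 libraries. In that library genes with many reads per base tend to lie above the rest of the group and thinly covered genes below it. The ferritin results are therefore also given without that library, as are several other calls that end or appear without it. Tubular epithelial markers were all present (8 of 8 in the table), with summed values of 9212 to 13035 with both agents, 8354 to 9150 with myoglobin and 9203 to 9504 with vehicle. Of the proximal tubule markers 8 of 10 are in the table. Lrp2 and Gpx3 carry most of their sum, while Cubn, Slc34a1 and Slc5a2, which define that segment, lie at 0 to 7 in every library.

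Myoglobin raised 4 of the 10 genes and lowered none, tested with limma on log2(value + 1) and adjusted over all 14558 tested genes (adjusted p below 0.05). Hmox1 rose 4.04-fold, Slc11a2 1.53-fold, and the ferritin genes Ftl1 and Fth1 1.23-fold each. Of all tested genes, 18.3% passed in this comparison, and 8.71% of all tested genes passed as higher. The median change of the 10 genes was 0.08 on the log2 scale, against 0.00 over all tested genes. With dexamethasone added to myoglobin, the genes that rose relative to vehicle numbered 4 as well, Hmox1, Slc11a2, Fth1 and Ftl1, where 28.6% of all genes passed and 13.9% passed as higher. Both comparisons use the same vehicle libraries. Between myoglobin with dexamethasone and myoglobin alone, limma called 0 of the 10 genes, where 6.98% of all genes passed. At an unadjusted p below 0.05 there were 2, Hmox2 and Fth1, where 22.2% of all genes lay below it.

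**Figure D1:**
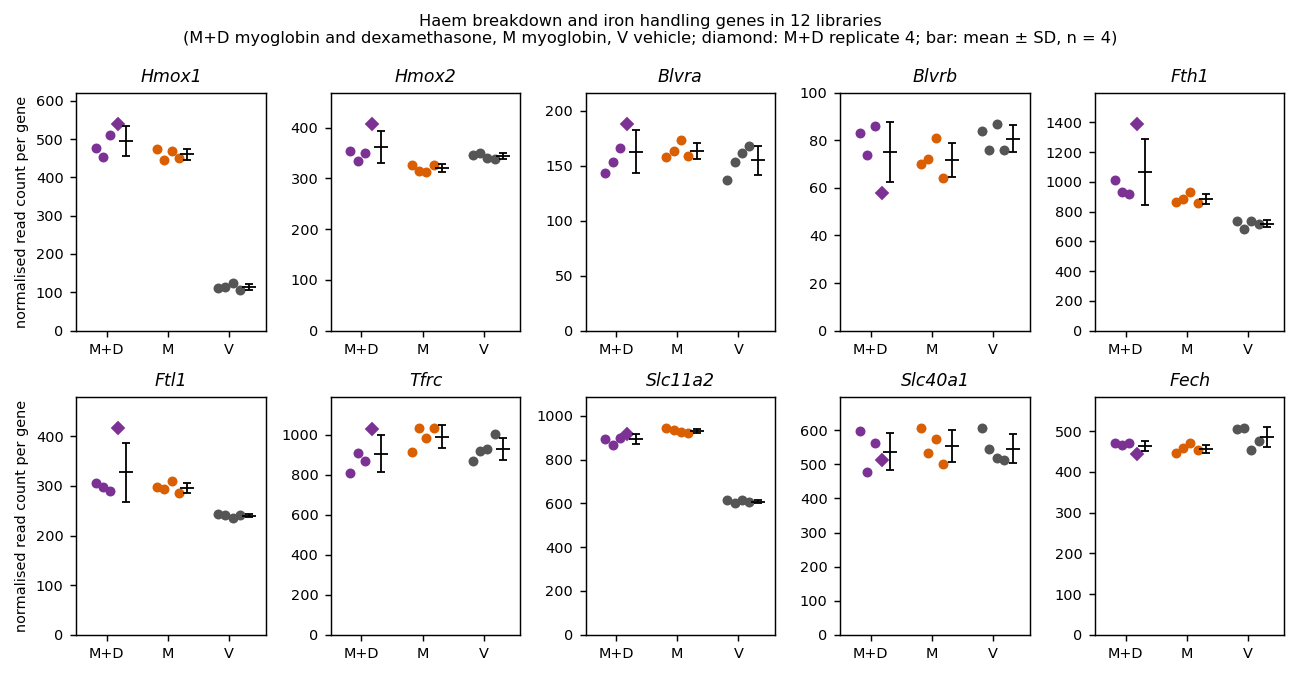
Normalised read count per gene (vertical axes, each from 0) of the 10 genes in the 12 libraries, by treatment, with points for libraries, a diamond for replicate 4 of myoglobin with dexamethasone, and bars for the mean ± SD (n = 4). Hmox1 and Slc11a2 stand far above vehicle in all libraries with myoglobin, and in Fth1 and Ftl1 the diamond lies above the other points.

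Hmox1 encodes haem oxygenase 1, the inducible enzyme that opens the haem ring (ENSMUSG00000005413, chr8:75093621-75100589 in mm10). Its values were 476, 453, 510 and 540 with both agents (replicates 1 to 4 in this order, here and below), 475, 446, 468 and 451 with myoglobin, and 110, 113, 124 and 106 with vehicle. Every library with myoglobin, with or without dexamethasone, lay above every vehicle library, and the groups with and without dexamethasone overlapped. The mean was 460.0 ± 13.7 with myoglobin and 113 ± 7.72 with vehicle (SD, n = 4 each), a log2 fold change of 2.02 ± 0.062 (SE, limma adjusted p 9.33e-12). That rise was the 43rd highest of 14558 genes. With both agents the change from vehicle was 2.12 ± 0.062 (limma adjusted p 3.75e-12), again at place 43. Between both agents and myoglobin alone the difference was 0.10 ± 0.062, with a 95% confidence interval of -0.03 to 0.23 (limma adjusted p 0.352), and 0.06 ± 0.059 without replicate 4 with both agents (adjusted p 0.607).

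Hmox2 encodes the constitutive haem oxygenase, which carries out the same reaction (ENSMUSG00000004070, chr16:4726361-4766742). Its values were 354, 335, 350 and 408 with both agents, 327, 314, 313 and 327 with myoglobin, and 347, 351, 340 and 339 with vehicle. All 4 myoglobin libraries were lower than every vehicle library and every library with both agents, while vehicle and both agents overlapped each other. The difference of myoglobin from vehicle was -0.10 ± 0.055 and did not pass (limma adjusted p 0.224, and 0.0391 with library weights). The difference of both agents from myoglobin was 0.17 ± 0.055, which also did not pass (limma adjusted p 0.0762). It passed without replicate 2 of myoglobin with dexamethasone (adjusted p 0.0452) and with quantile normalization (0.0490), and without replicate 4 it was 0.11 ± 0.040 and did not pass (0.103). The gene shares 892 exonic bases with Cdip1 on the opposite strand, and whether the counting used strand is not given in the sources used here, so its level is uncertain.

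Within a library the ratio of Hmox1 to Hmox2, in normalised counts, was 1.37 ± 0.0598 with both agents, 1.44 ± 0.0492 with myoglobin and 0.329 ± 0.0241 with vehicle (SD, n = 4). The lowest ratio in a library with myoglobin was 1.32, and the highest in a vehicle library was 0.365. An exact two-sided permutation test gave p = 0.0286 for either treatment against vehicle, the smallest value that 4 against 4 libraries allow, and 0.0571 after adjustment over the 12 ratio tests made. The ratios were chosen after the values were seen.

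The biliverdin reductase genes did not pass in any comparison. Blvra, which encodes the reductase that makes bilirubin from biliverdin (ENSMUSG00000001999, chr2:127070665-127097084), spanned 143 to 188 with both agents, 158 to 173 with myoglobin and 137 to 168 with vehicle. Blvrb encodes a reductase that also acts on flavins (ENSMUSG00000040466, chr7:27447978-27466144), and it spanned 58 to 86, 64 to 81 and 76 to 87 in the same 3 groups. The groups overlapped in both genes. Blvra differed by 0.08 ± 0.088 between myoglobin and vehicle, with an interval of -0.11 to 0.27 (limma adjusted p 0.598). Blvrb differed by -0.17 ± 0.13, with an interval of -0.44 to 0.10 (limma adjusted p 0.402). Blvrb is the member with the fewest reads, an estimated 33.0 to 93.2 per library, and its interval is the widest of the 10 genes.

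Fth1 encodes the ferritin heavy chain, which oxidises iron as it enters the shell (ENSMUSG00000024661, chr19:9980598-9985098). Its values were 1012, 935, 917 and 1391 with both agents, 867, 887, 933 and 857 with myoglobin, and 737, 684, 740 and 719 with vehicle. Each library with myoglobin lay above each vehicle library, and replicate 4 with both agents was the highest of the 12. Myoglobin gave 886 ± 33.7 and vehicle 720.0 ± 25.7, a change of 0.30 ± 0.096 (limma adjusted p 0.0408). The shared spread of this fit includes the high replicate 4 of myoglobin with dexamethasone: without that library the same change had an SE of 0.039 and an adjusted p of 4.35e-05. Leaving out any of the 8 myoglobin or vehicle libraries in its place ended the call, with adjusted p up to 0.112. With both agents the change from vehicle was 0.54 ± 0.096 (limma adjusted p 6.31e-04), and 0.41 ± 0.042 without replicate 4 (adjusted p 5.01e-06).

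Ftl1 encodes the ferritin light chain, which helps iron to mineralise inside the shell (ENSMUSG00000050708, chr7:45457944-45459884). Its values were 305, 298, 290 and 417 with both agents, 298, 293, 310 and 285 with myoglobin, and 243, 241, 236 and 241 with vehicle. As in Fth1, no library with myoglobin overlapped the vehicle libraries. The change with myoglobin was 0.30 ± 0.088 (limma adjusted p 0.0261), with 7.97e-05 when replicate 4 of myoglobin with dexamethasone was left out. It was lost without myoglobin replicate 1, 2 or 3 or vehicle replicate 2 or 3 (adjusted p up to 0.0760). With both agents the change from vehicle was 0.43 ± 0.088 (limma adjusted p 0.00207), and 0.31 ± 0.045 without replicate 4 (adjusted p 1.36e-04).

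Between both agents and myoglobin alone, neither ferritin gene passed. Fth1 differed by 0.24 ± 0.096 (limma adjusted p 0.151), and by 0.11 ± 0.042 without replicate 4 (adjusted p 0.136). Ftl1 differed by 0.13 ± 0.088 (adjusted p 0.420), and by 0.01 ± 0.045 without that library (adjusted p 0.957). Both differences were smaller without it. The ratio of Fth1 to Ftl1 within a library was 3.24 ± 0.103 with both agents, 2.99 ± 0.0534 with myoglobin and 2.998 ± 0.124 with vehicle. Its lowest value with both agents, 3.14, was above the highest with myoglobin, 3.03, with an exact permutation p of 0.0286 and 0.0571 after adjustment over the 12 ratio tests. Both genes have near-identical pseudogenes in the annotation. The 4 in the table, Fth-ps2, Fth-ps3, Ftl1-ps1 and Ftl1-ps2, have values of at most 12, and reads that the counting may have shared with such copies are uncertain.

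**Figure D2:**
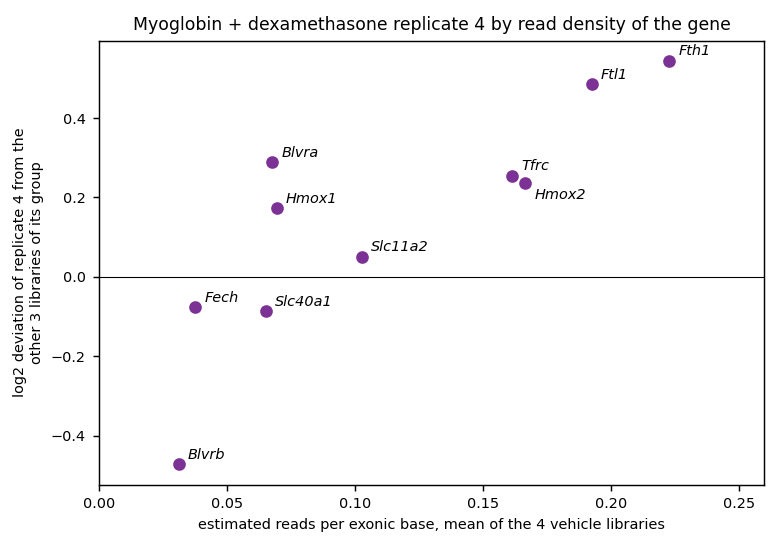
Log2 deviation of replicate 4 of myoglobin with dexamethasone from the other 3 libraries of its group (vertical axis) against the estimated reads per exonic base of the gene in vehicle (horizontal axis), with 1 point per gene for the 10 genes. Fth1 and Ftl1, the most densely covered genes in vehicle, deviate the most upward (0.54 and 0.49), and Blvrb, the least covered, deviates downward (-0.47).

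Replicate 4 of myoglobin with dexamethasone was highest of the 12 libraries for Fth1, Ftl1, Hmox1, Hmox2 and Blvra. Its log2 deviation from the other 3 libraries of its group was 0.54 for Fth1, 0.49 for Ftl1, 0.29 for Blvra, 0.26 for Tfrc and 0.24 for Hmox2. For Hmox1 it was 0.17, for Slc11a2 0.05, for Fech -0.08, for Slc40a1 -0.09 and for Blvrb -0.47. Over all tested genes the median deviation was -0.22 below 0.03 estimated reads per exonic base in vehicle, -0.04 at 0.03 to 0.1, 0.11 at 0.1 to 0.2, 0.27 at 0.2 to 0.3 and 0.39 above 0.3. The density in vehicle was 0.223 reads per base for Fth1 and 0.193 for Ftl1. Hmox1, Blvra, Blvrb, Slc40a1 and Fech lie at 0.03 to 0.1 in vehicle, and their deviations span -0.47 to 0.29. In myoglobin libraries the density of Hmox1 was 0.274, above Fth1 with 0.266 and Ftl1 with 0.231, while its deviation of 0.17 was smaller than theirs. The part of read density in the ferritin values of that library was not tested.

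Slc11a2 encodes the divalent metal transporter DMT1, which moves ferrous iron out of endosomes and across the cell membrane (ENSMUSG00000023030, chr15:100387898-100425072). Its values were 895, 866, 898 and 918 with both agents, 944, 934, 925 and 922 with myoglobin, and 613, 600, 614 and 604 with vehicle. The 3 groups did not overlap, with myoglobin highest, both agents next and vehicle lowest. Relative to vehicle the change was 0.61 ± 0.033 with myoglobin (limma adjusted p 3.60e-09) and 0.56 ± 0.033 with both agents (limma adjusted p 9.91e-09). Relative to myoglobin alone, both agents gave -0.06 ± 0.033, which did not pass (limma adjusted p 0.311). An exact two-sided permutation test of that difference over its 4 against 4 libraries gave 0.0286 for this gene alone, the smallest p it can give.

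Tfrc encodes transferrin receptor 1, which takes up iron bound to transferrin (ENSMUSG00000022797, chr16:32608920-32632794). Its values were 810, 909, 870 and 1029 with both agents, 912, 1032, 985 and 1034 with myoglobin, and 870, 920, 930 and 1003 with vehicle. The 3 groups overlapped. Myoglobin differed from vehicle by 0.09 ± 0.066 (limma adjusted p 0.400) and both agents differed from vehicle by -0.04 ± 0.066 (adjusted p 0.646), or -0.11 ± 0.054 without replicate 4 with both agents (adjusted p 0.148). Between both agents and myoglobin the difference was -0.13 ± 0.066 (limma adjusted p 0.246). When replicate 4 with both agents was left out it was -0.20 ± 0.054 and passed (adjusted p 0.0326), as it did with library weights (-0.19, adjusted p 0.0146).

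Slc40a1, which encodes the iron exporter ferroportin (ENSMUSG00000025993, chr1:45908068-45926523), had values of 598, 477, 564 and 512 with both agents, 607, 533, 576 and 500 with myoglobin, and 606, 544, 520 and 513 with vehicle. The 3 groups covered nearly the same range. Myoglobin differed from vehicle by 0.02 ± 0.076, with an interval of -0.14 to 0.18 (limma adjusted p 0.888), and both agents differed from myoglobin by -0.04 ± 0.076 (adjusted p 0.770). Fech, on chromosome 18, encodes ferrochelatase, which inserts iron into the porphyrin ring in the last step of haem synthesis (ENSMUSG00000024588). Its values spanned 445 to 472 with both agents, 446 to 470 with myoglobin and 454 to 508 with vehicle, and the groups overlapped. Its difference was -0.09 ± 0.044 for myoglobin against vehicle, with an interval of -0.18 to 0.01 (limma adjusted p 0.202), and 0.02 ± 0.044 for both agents against myoglobin (adjusted p 0.839).

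**Figure D3:**
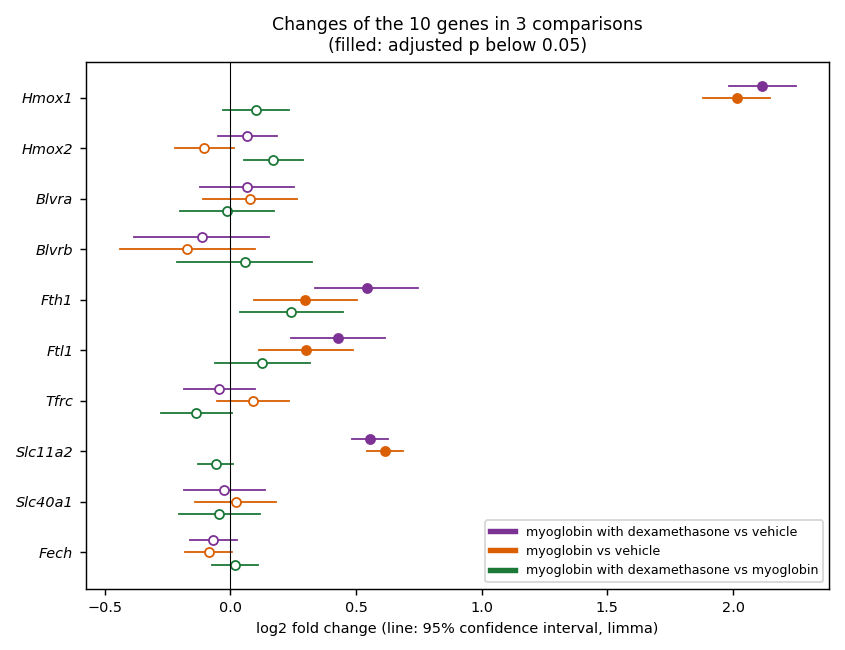
Log2 fold change (horizontal axis) of the 10 genes in the 3 comparisons with 95% confidence intervals from limma, filled where the adjusted p is below 0.05. Hmox1 lies at 2.12 and 2.02 against vehicle, Slc11a2 at 0.56 and 0.61, and no point is filled for both agents against myoglobin.

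The genes whose groups did not overlap numbered 5 for myoglobin against vehicle, the 4 that rose and Hmox2, which was lower in every myoglobin library, where 25.0% of all genes did not overlap. For both agents against vehicle there were 4 (28.6% of all genes), and for both agents against myoglobin 2, Hmox2 and Slc11a2 (13.2%). In bulk libraries such as these, fewer cells of a type and less RNA per cell cannot be told apart.

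Levels were compared between genes as normalised counts per kilobase of exon. In vehicle the order was Fth1 with 208 ± 7.42, Ftl1 with 179 ± 2.23, Hmox2 with 155 ± 2.59, Tfrc with 150.5 ± 8.87 and Slc11a2 with 95.7 ± 1.08 (SD, n = 4). Below these came Hmox1 with 64.7 ± 4.41, Blvra with 63.3 ± 5.45, Slc40a1 with 60.6 ± 4.70, Fech with 35.1 ± 1.84 and Blvrb with 29.0 ± 2.02. Hmox2 and Tfrc overlapped, as did Hmox1 with Blvra and Blvra with Slc40a1, and the other neighbours did not. With both agents Hmox1 stood at 283 ± 21.8 per kilobase and with myoglobin at 263 ± 7.84, beside 307 ± 64.0 and 255 ± 9.72 for Fth1. Replicate 4 with both agents stood at 1.46 times the mean of the rest of its group for Fth1. For Hmox1 it stood at 1.13 times that mean. The higher level of Fth1 with both agents therefore leans on that library. Exonic length counts every annotated exon, so the level of a gene with long rare exons is understated.

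The promoters of 6 members are in the RefSeq table of GRCm38.p6, 250 bases before to 50 after a start. Hmox1, Slc11a2, Slc40a1 and Fech are not among them. The core of the antioxidant response element, TGACNNNGC on either strand, was found in the window of Blvra and in 12.4% of 32851 promoters. It was not found in the windows of Fth1 and Ftl1, which says only that these letters are absent there.

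The genes whose pattern was most like that of Hmox1 were found by the root mean square difference of log2 values over the 12 libraries, each gene set against its own vehicle mean, among 12814 genes. Steap4, which encodes a metalloreductase for iron and copper, was nearest with 0.0917. It had 1139, 1027, 1018 and 1142 with both agents, 1061, 1010, 983 and 981 with myoglobin, and 269, 258, 256 and 211 with vehicle. Next were Ccl28, a mucosal chemokine (0.143), Cyp1b1, a cytochrome P450 (0.159), Dgat2, of triglyceride synthesis (0.217), and Slc28a3, a nucleoside transporter (0.227). Nearest to Tfrc were Mfsd10 (0.0260), Shtn1 (0.0419), Rangap1 (0.0447), Dctpp1 (0.0461) and Cdca4 (0.0477). The likeness uses the same libraries for each pair of genes and is a description.

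Of 84 other haem and iron genes listed by role, 77 are in the table and 73 were tested. With myoglobin against vehicle 13 rose and 6 fell, where 18.3% of all genes passed. Without replicate 4 of myoglobin with dexamethasone 20 rose and 7 fell, in a fit where 3789 of all 14510 tested genes passed in place of 2669 of 14558. With the replicate number as a block 18 rose and 8 fell, where 3503 of all genes passed. The 7 genes that the block added are Smad7 (lower, limma adjusted p 0.0209), Mafk (higher, adjusted p 0.0280), Herc2, Aco1, Epas1, Zfp36 and Slc25a37, and the last 5 are described with their roles. With both agents against vehicle 26 rose and 9 fell, where 28.6% of all genes passed. The median change of the list was 0.08 with myoglobin and 0.12 with both agents, against 0.00 over all genes in each.

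In haem synthesis 1 of 9 tested genes passed with myoglobin. Alas1, the rate-limiting first enzyme, had 203, 210, 239 and 199 with both agents, 189, 202, 186 and 206 with myoglobin, and 378, 397, 395 and 399 with vehicle. It fell by 1.0 ± 0.062 with myoglobin (limma adjusted p 1.56e-08) and by 0.88 ± 0.062 with both agents (adjusted p 6.21e-08). Its direction was opposite to that of Hmox1, and the ratio of Hmox1 to Alas1 was 2.34 ± 0.268 with both agents, 2.36 ± 0.183 with myoglobin and 0.289 ± 0.0199 with vehicle. Cpox and Tmem14c were among the genes that rose with both agents against vehicle, Tmem14c, which carries porphyrins into mitochondria, by 0.23 ± 0.074 (limma adjusted p 0.0282). Without replicate 4 with both agents Cpox lost its call (adjusted p 0.0717), and Tmem14c gave 0.15 ± 0.053 (adjusted p 0.0491).

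Of 12 tested genes of haem and haem protein transport, 3 rose with myoglobin and none fell. Slc48a1, the haem carrier that exports haem from lysosomes, had 1044, 929, 1022 and 1247 with both agents, 967, 905, 1056 and 948 with myoglobin, and 671, 655, 718 and 647 with vehicle (0.52 ± 0.073 with myoglobin, limma adjusted p 9.60e-05). Hp, the haemoglobin-binding haptoglobin, rose by 0.70 ± 0.089 with myoglobin and by 1.01 ± 0.089 with both agents. Flvcr1, which encodes a transporter of the haem exporter family, rose by 0.20 ± 0.051 with myoglobin.

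Of 10 tested genes of iron uptake and reduction, 5 rose and 2 fell with myoglobin. Steap4 rose by 2.02 ± 0.067, Steap1, of the same metalloreductase family, by 0.46 ± 0.065, and Hfe, which binds the transferrin receptor, by 0.60 ± 0.096. Cybrd1, a duodenal ferric reductase, fell by 0.63 ± 0.18 (limma adjusted p 0.0234), a call kept in 18 of 21 other settings. Slc22a17, a lipocalin receptor, fell by 0.31 ± 0.053. Of 6 tested genes of iron export oxidases and the hepcidin pathway, Cp, the ferroxidase ceruloplasmin, rose by 0.26 ± 0.074 with myoglobin. That call (limma adjusted p 0.0219) was kept in 18 of 22 other settings. Heph, another ferroxidase, fell by 0.28 ± 0.066. Tmprss6, a protease that restrains hepcidin in the liver, fell to 24.3 ± 9.39 with myoglobin, against 76.3 ± 18.4 with vehicle, a change of -1.64 ± 0.24 (limma adjusted p 1.34e-04).

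Among the 8 genes listed for transcriptional control of haem and iron genes, 3 rose and 1 fell with myoglobin. Bach1, the haem-sensing repressor of Hmox1, rose by 0.27 ± 0.051. The small Maf genes Mafg and Maff, whose proteins pair with that repressor and with NRF2, rose by 0.29 ± 0.043 and 0.46 ± 0.12. The Maff call (limma adjusted p 0.0166) was kept in 20 of 22 other settings. Bach2, a relative of Bach1, fell by 0.74 ± 0.13. With both agents against vehicle 6 of the 8 rose, among them Nfe2l2, the gene of NRF2, by 0.24 ± 0.071. Without replicate 4 with both agents Nfe2l2 gave 0.14 ± 0.036 (limma adjusted p 0.00845), and Mafk, another of the 6, lost its call (adjusted p 0.102). Of 6 tested iron-sensing genes, Hif1a rose with myoglobin by 0.22 ± 0.061 (limma adjusted p 0.0202), a call kept in 19 of 22 other settings. With the block Aco1 and Epas1 also passed as higher and Zfp36 as lower (limma adjusted p 0.0456, 0.0257 and 0.0407). Without replicate 4 with both agents Aco1, Ireb2 and Fbxl5 passed as higher with myoglobin besides Hif1a (limma adjusted p 0.00121, 0.0449 and 0.0430). Aco1, which encodes iron regulatory protein 1, rose with both agents against vehicle by 0.29 ± 0.049 (limma adjusted p 4.03e-04). In iron storage and ferritin turnover limma called 0 of 5 genes with myoglobin, against 1 at an unadjusted p below 0.05, Herc2, a ubiquitin ligase that controls the ferritin receptor NCOA4 (0.17 ± 0.072). Herc2 was higher with myoglobin in all 4 same-numbered pairs and passed with the replicate number as a block (adjusted p 0.00537) and without replicate 4 with both agents (adjusted p 0.0480). Tax1bp1, an autophagy receptor, differed by 0.14 ± 0.051 between both agents and myoglobin and did not pass (limma adjusted p 0.116), with 0.08 ± 0.032 without replicate 4 (adjusted p 0.125). In mitochondrial iron and iron-sulphur cluster assembly it called 0 of 17 with myoglobin, against 1 unadjusted. Slc25a37, which encodes the mitochondrial iron importer mitoferrin 1, passed with the block (adjusted p 0.0225), and it and Hspa9 passed without replicate 4 with both agents (adjusted p 0.00496 and 0.00855). With both agents against vehicle, Iscu, the scaffold of cluster assembly, rose by 0.23 ± 0.064.

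Between both agents and myoglobin alone, 3 of the 73 genes rose and none fell (4.11%, where 6.98% of all genes passed). Zfp36, which encodes an RNA-destabilising protein that acts on Tfrc messenger RNA in iron shortage, had 303, 317, 321 and 329 with both agents, against 240, 268, 264 and 280 with myoglobin (0.27 ± 0.053, limma adjusted p 0.00590). Slc39a14, an importer of iron and zinc, rose by 0.22 ± 0.055 and Flvcr2, a relative of Flvcr1, by 0.62 ± 0.16 (limma adjusted p 0.0259 and 0.0275). Flvcr2 kept its call in 16 of 22 other settings, with limma adjusted p up to 0.0845. Alas1 and Steap4 differed by 0.12 ± 0.062 and 0.10 ± 0.067 and did not pass (limma adjusted p 0.278 and 0.406).

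**Figure D4:**
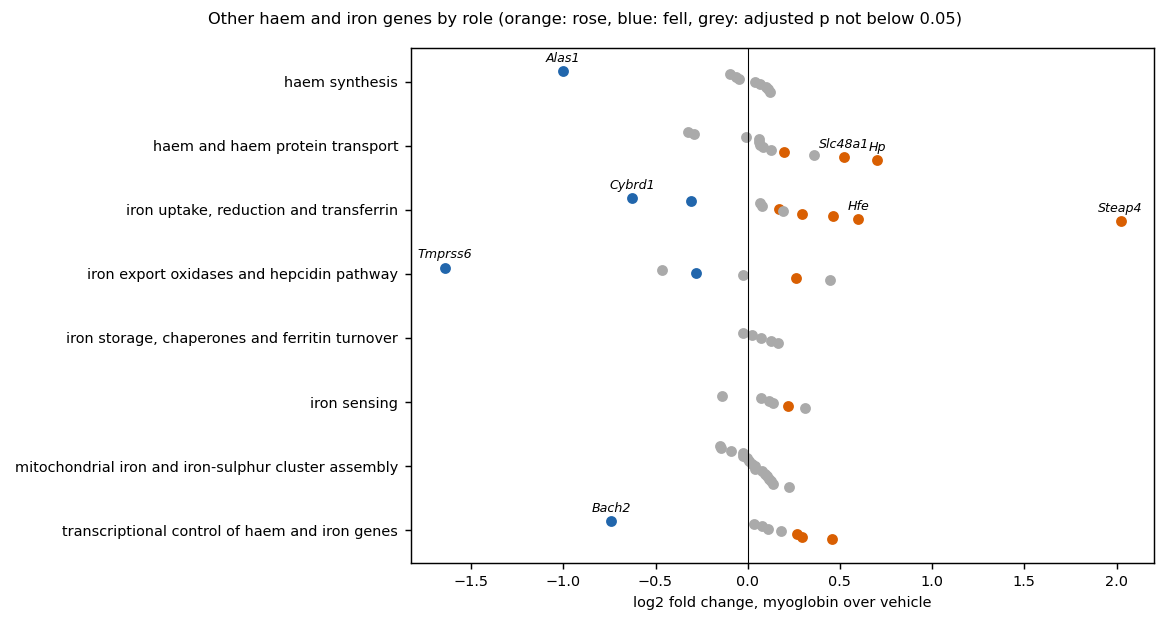
Log2 fold change of myoglobin over vehicle (horizontal axis) for the 73 tested genes of the other haem and iron roles (rows), coloured by the limma call, with named genes that changed by at least 0.5. Steap4 lies at 2.02, and Tmprss6 and Alas1 lie lowest at -1.64 and -1.0.

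Other cells could contribute haem and iron genes to a bulk library. Of 10 macrophage and immune markers 9 are in the table, with sums of 926 to 1156 with both agents, 981 to 1140 with myoglobin and 914 to 1065 with vehicle. Ptprc and Cd14 carry most of these sums. Ptprc had 408 to 444, 320 to 377 and 401 to 484 in the same 3 groups, and Cd14 had 395 to 577, 451 to 557 and 324 to 374. Over all libraries Cd68 lay at 62 to 116 and Lyz2 at 28 to 112. Lower were Adgre1 at 1 to 28, Csf1r at 2 to 19, Cd163 at 0 to 14, Itgam at 1 to 7 and C1qa at 0 to 3. Of 10 erythroid markers 2 are in the table, with sums of 2 to 7 with both agents, 2 to 14 with myoglobin and 4 to 6 with vehicle. Fibroblast markers summed to 86 to 120 with both agents, 123 to 190 with myoglobin and 132 to 208 with vehicle, endothelial markers to 11 to 15, 8 to 16 and 11 to 13, and podocyte markers to 612 to 723, 569 to 799 and 666 to 991. The part of these cells in the results was not tested.

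Over all genes limma called 2669 for myoglobin against vehicle (1268 higher, 1401 lower), 1016 for both agents against myoglobin (448 higher, 568 lower) and 4161 for both agents against vehicle. The last were 2029 higher and 2132 lower with the deposited scaling, and 1565 higher and 2648 lower when scaled to library totals.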

How the data were processed

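Messenger RNA of 12 tubuloid libraries in 3 groups of 4 was analysed from the table that the authors deposited. Its values are whole numbers and were treated as a normalised score: the deposited values behave as reads per gene divided by a scaling factor of the library and rounded, which was read from the whole numbers that each library skips or doubles. Per the submitters' processing notes, the build was mm10 and the tools included STAR 2.7.10a, featureCounts 2.0.3, DESeq2 1.36.0, Trimmomatic 0.39 and Picard 2.27.4, with no role given for any. Because the values are rounded and scaled, no count test was used.

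The 14558 genes that reached 10 in 4 or more libraries were tested with limma-trend (limma 3.58.1, R 4.3.3) on log2(value + 1), with 1 spread shared by the 12 libraries, and p-values were two-sided and Benjamini-Hochberg adjusted over all tested genes. An adjusted p below 0.05 was the threshold, and "rose" and "fell" are used of such genes. Changes are log2 fold changes ± SE. The fit was tested on simulated data with independent libraries and changes larger than those of the ferritin genes. That test therefore does not bear on the ferritin calls. Single genes and ratios were also tested with exact permutation tests over libraries. The members and lists were chosen with earlier results of these data known. The 10 members are named whatever their result, and of the other 84 genes at least the 2 of each role with the smallest p, with some genes of the list not reported here by name.

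Replicate numbers come from the labels, which tie no number to a mouse, so p-values measure only the spread between these samples, which may be technical. Same-numbered libraries of myoglobin and vehicle deviated together (correlations of 0.134 to 0.628 over 12320 genes). In the tests these numbers were used only in the fit with the replicate number as a block. The main fit and the permutation tests took no pairing. For both agents with myoglobin, the correlations were 0.56, 0.16, 0.0075 and 0.25 for numbers 1 to 4. For both agents with vehicle they were 0.44, 0.18, 0.0086 and 0.30. In these 2 comparisons the main fit took no pairing either. Coordinates are those of the table, and match GENCODE M21 for 98.9% of the genes. That annotation gave transcripts and exonic lengths. Other software was scipy 1.17.1, pandas 2.3.3, numpy 2.4.6 and, for plots, matplotlib 3.10.9, under Python 3.11.15.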

Additional observations from a re-analysis of the deposited data

Results flagged for a closer look

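Of 30 groups of 4 libraries checked (10 genes in 3 groups), 1 held a library far from the other 3. Ftl1 stood at 417 in replicate 4 of myoglobin with dexamethasone, against 290 to 305 in the other 3 libraries of the group, a gap of 0.882 of the group's range. Chance gives about 1 such group in 20. Without that library Ftl1 still rose with both agents against vehicle, by 0.31 ± 0.045 (limma adjusted p 1.36e-04).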

How the results depend on the processing

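Of 660 single-gene results under other settings, 620 kept their direction and their side of the threshold, 20 turned direction, 7 gained the call and 13 lost it. The 13 lost calls are those of Fth1 and Ftl1 for myoglobin when 1 library was left out. Turned directions concern values near 0 in genes that were not called. For myoglobin against vehicle Slc40a1 gave -3.97e-05 with upper-quartile scaling, -0.0022 with quantile normalization and -0.024 to 0.072 when each library was left out. For both agents against vehicle Blvrb gave 0.033 with quantile normalization, and leaving out a library gave -0.18 to 0.0041 for Blvrb, -0.0055 to 0.13 for Blvra, -0.11 to 0.0063 for Tfrc and -0.076 to 0.032 for Slc40a1. For both agents against myoglobin Blvra gave 0.013 with quantile normalization, and Fech -1.19e-04 with upper-quartile scaling and -0.0100 with library totals. Leaving out a library there gave -0.085 to 0.045 for Blvra, -0.012 to 0.17 for Blvrb and -0.097 to 0.011 for Slc40a1.

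With library weights the calls for myoglobin were 29 of the pathway list and 4314 of all genes, and for both agents against myoglobin 1, 7 and 1625 of the 10 genes, the list and all genes. For that last comparison, quantile normalization called 1 of the 10 genes, and a fit of only the 2 groups called 1 of the list and 639 of all genes. With the replicate number as a block, 2 of the 10 genes (Hmox2 up, adjusted p 0.0429, and Tfrc down, 0.0384), 8 of the list and 1788 of all genes passed there. The block changed no other call of the 10 genes. In 10 of 12 libraries the best correlation was with their own number, a hint from the data and not from the design.

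Leaving out each library called 2 to 4 of the 10 genes, 16 to 27 of the list and 2037 to 3789 of all genes for myoglobin against vehicle. For both agents against vehicle it called 4 to 4, 26 to 34 and 3130 to 4226, and for both agents against myoglobin 0 to 1, 1 to 5 and 549 to 1279. The cause of these shifts was not tested. Depth limits Blvrb most, with an estimated 33.0 to 93.2 reads.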
